A study of Saccharomyces cerevisiae with 18 samples.

Results

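The genes described here are 32 subunit genes of the yeast proteasome and RPN4, the gene of their shared transcription activator. They were chosen by identifier, and all 33 were found among the 7036 features counted in each library. They comprise 10 genes of the 19S base (RPN10 and RPN13, ubiquitin receptors, are counted with it), 8 of the 19S lid, 7 of the 20S alpha ring, 7 of the 20S beta ring, and RPN4. SEM1 is not among them and is counted below with the genes of associated proteins. All 33 had enough reads to be tested, among 5660 features that did. Raw counts of a member in a library ran from 1243 to 7867.

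The libraries were poly(A) RNA from asynchronous cultures of Saccharomyces cerevisiae strain S288C, grown in rich medium with 2% glucose and added adenine at 25 °C to an optical density of 0.6 to 0.7. There were 3 strains with 6 libraries each, and each had GFP fused to NUP60, a gene of the nuclear basket of the nuclear pore. WT kept lysine at residue 467 of Nup60 and carried HIS3 of Saccharomyces kluyveri as the marker. K467N had asparagine there, a mimic of acetylated lysine, with the same marker. K467R had arginine, a mimic of lysine without the acetyl group, with the HIS3MX6 marker, so that marker and substitution change together in each comparison with K467R. The stated question is whether acetylated Nup60 has a general part in transcription. Nothing in the labels says that the 6 samples of a strain are independent cultures or clones, so the p-values below measure only the spread between these samples, which may be technical.

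NUP60 stood at 84.6 ± 6.50 CPM (SD, n = 6) in WT, 87.6 ± 3.19 in K467N and 89.1 ± 4.20 in K467R, a level that does not show a point substitution. HIS3 had 7468 counts over the WT libraries, 7394 over the K467N libraries and 1 over the K467R libraries, a split that follows the marker in the labels. Whether these reads came from the marker or from the HIS3 gene of the strain itself was not tested. K467N 2 and K467R 1 stand apart as the ends of the first principal component over all genes (37.4% of the variance), at 15.5 and -19.7, with the other libraries between -12.0 and 9.31. Several results that rest on them are given with and without them. The lists of related genes, the pairs of subunits and most estimates of single members are given only with them. So are the correlations of RPN4 within the mutants and with the length trend removed.

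The proteasome is the protease that degrades proteins tagged with ubiquitin. Its 20S core is a barrel of stacked alpha and beta rings, and the active sites lie inside on 3 of the beta subunits. The 19S particle caps the barrel: the base holds a ring of ATPases (RPT1 to RPT6) that unfolds substrates and threads them in, and the lid holds the deubiquitinase RPN11. The transcription factor Rpn4 activates most of these genes by binding an element called PACE in their promoters. Rpn4 is itself a short-lived substrate of the proteasome, which closes a feedback loop on the supply of subunits.

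The PACE element was searched as GGTGGCAAA on both strands in the 500 bases before each start codon, to show what the members share in sequence apart from the counts. An exact match stood before 27 of the 32 subunit genes (84.4%) and before 98 of the 5896 protein-coding genes with a full window (1.66%), the 27 included. PACE is already known from the promoters of these genes, so this share is a description and not a test. By subcomplex the matches stood before 8 of 10 base genes, 7 of 8 lid genes, 6 of 7 alpha ring genes and 6 of 7 beta ring genes. Each of the 27 genes had 1 match, 19 on the strand of the gene and 8 on the other. The end of the match nearest the gene lay 76 to 175 bases before the start codon, with a median of 112. One window of 30 bases from each subcomplex is shown, and one of RPN9, the subunit gene of lowest RNA level. They are read from the RefSeq R64 genome 5′ to 3′ on the strand that carries the match, with the match in capitals.
RPT4, base, chrXV:813801-813830, plus strand: cctttcccttcGGTGGCAAAttccactatt
RPN11, lid, chrVI:153259-153288, plus strand: ggacctccaaGGTGGCAAAttcacaagaaa
RPN9, lid, chrIV:1322086-1322115, plus strand: gctttcatccGGTGGCAAAagtaagaacaa
PRE9, alpha ring, chrVII:761223-761252, plus strand: ttaccctgcaGGTGGCAAAaaatttataga
PRE2, beta ring, chrXVI:732184-732213, plus strand: acagcaaaagGGTGGCAAAacgaagaatag

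The other 5 subunit genes, RPN8, RPN10, RPN13, PRE5 and PUP1, each held a match with 1 substitution, shown here because they complete the 32. Positions are counted from 1 at the 5′ end of GGTGGCAAA, with the base of PACE first. The substitution was A7G in RPN10 and RPN13, and G1A in RPN8, PRE5 and PUP1. These matches lay 93 to 164 bases before the start codon. With at most 1 mismatch allowed, 32 of 32 subunit genes held a match, as did 735 of the 5896 genes (12.5%), the 32 included. A match is a description of the letters and not of binding.
RPN10, base, chrVIII:498968-498997, minus strand: ttgtaaattccGGTGGCGAAaacccgcctg
RPN13, base, chrXII:965655-965684, minus strand: ttattcgcgaGGTGGCGAAagctttgctac
RPN8, lid, chrXV:817084-817113, minus strand: gggatacctcAGTGGCAAAtcgttactcaa
PRE5, alpha ring, chrXIII:901552-901581, plus strand: cctattatagAGTGGCAAAattaaaaattc
PUP1, beta ring, chrXV:631890-631919, minus strand: aacccggccgAGTGGCAAAataccaaaaag

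**Figure D1:**
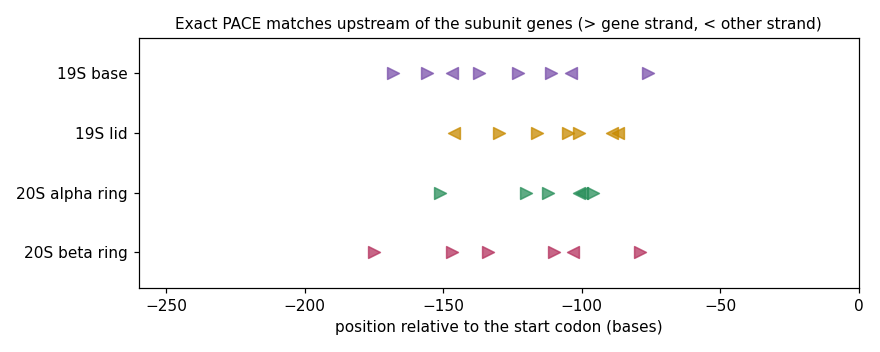
Position of the exact PACE matches before the 27 subunit genes that hold one, by subcomplex; the x axis is the distance in bases from the start codon to the end of the match nearest the gene, and the direction of a triangle gives the strand. The matches of all 4 subcomplexes lie between 76 and 175 bases before the start codon.

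The window before RPN4 held no exact PACE match and none with 1 substitution. It held the Yap1 motif TTACTAA, 368 bases before the start codon, and the core of the Hsf1 motif, TTCNNGAA, at 341 and 14 bases. The Pdr1 and Pdr3 motif TCCGCGGA was not in this window. Over all promoters of this length, TTACTAA stood in 11.8%, TTCNNGAA in 21.5% and TCCGCGGA in 0.645%. Yap1, Hsf1 and the Pdr factors are known activators of RPN4 under oxidative, heat and drug stress. Among genes related to the proteasome, exact PACE matches stood before 0 of 10 assembly chaperone genes, 1 of 8 genes of associated proteins (ECM29) and 3 of 21 ubiquitin system genes (UBI4, UBA1 and CDC48). One of 6 genes that control RPN4, YAP1, held a match.

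Levels are given in RPKM, reads per kilobase of coding sequence after TMM scaling of library size, so that genes of different length can be compared, and ± is the SD of 6 libraries. Reads on genes numbered 12395725 to 19093010 per library, and the 32 subunits took 0.811 to 0.872% of them. In WT the median subunit stood at 264 RPKM, against 41.3 RPKM for the median tested gene, and the subunits lay between the 72.8 and 93.1 percentiles of tested genes. The span from the highest to the lowest subunit was 4.56-fold, and 23 of 32 lay within 1.5-fold of the median subunit. The subcomplexes were layered. The median WT level of the members was 350 RPKM in the alpha ring, 336 in the beta ring, 231 in the base and 170 in the lid. In each of the 18 libraries the median lid gene (149 to 184 RPKM) lay below the median base gene (211 to 260 RPKM), and both lay below the medians of the beta ring (286 to 366 RPKM) and alpha ring (304 to 392 RPKM). The ranges of the rings overlapped.

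**Figure D2:**
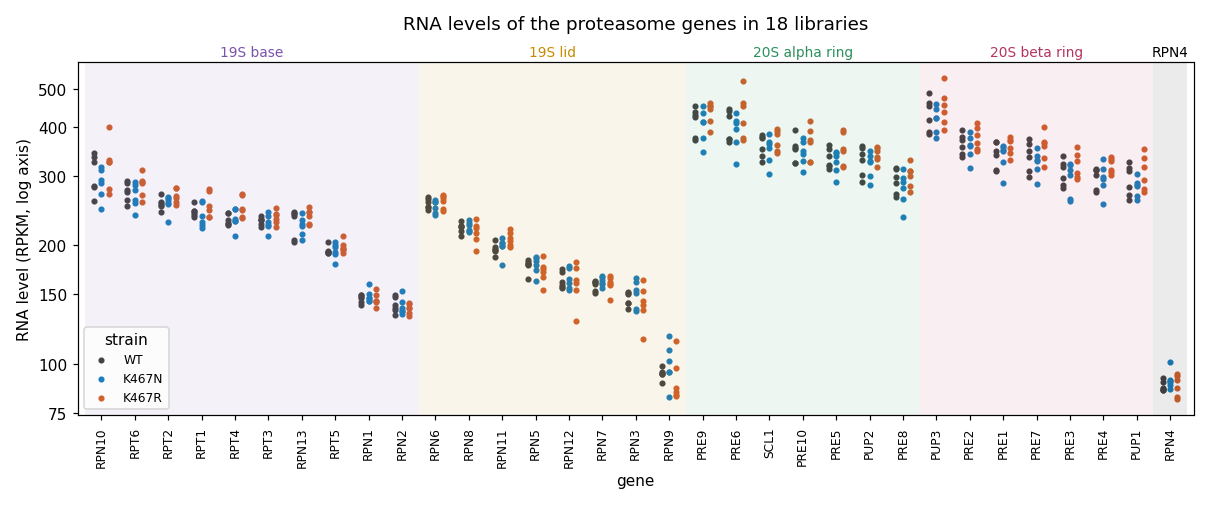
RNA level of each of the 33 genes (log y axis, RPKM), with a point for each of the 18 libraries coloured by strain, ordered within each subcomplex by WT level. The ring genes lie above most base and lid genes in all strains, and RPN9 and RPN4 are the lowest.

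Coding length differed between the subcomplexes, from 597 to 867 bases in the rings, 825 to 1572 in the lid and 471 to 2982 in the base, and fragments from short and long RNAs are not recovered equally. For 3 genes of like length, RPN12 (YFR052W, a lid subunit) with 825 coding bases stood at 163 RPKM, PUP1 with 786 bases at 293 and PRE10 with 867 bases at 350. Among tested genes within 20% of its own coding length, the ring genes lay between the 83.8 and 93.3 percentiles. In the same comparison 5 of 8 lid genes lay inside that range (RPN5 at 84.3, RPN3 at 84.7, RPN11 at 85.4, RPN8 at 88.2 and RPN6 above these) and 3 below it (RPN7 at 82.6, RPN12 at 80.1 and RPN9 at 71.4). By this measure the lid and the rings overlapped. RPN1 and RPN2, the scaffold subunits of the base and its longest members, were at 146 and 141 RPKM, which placed them at the 96.3 and 94.9 percentiles of genes of their length.

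Within the base, the highest gene was RPN10 (YHR200W), which encodes a ubiquitin receptor. Its WT libraries ran from 259 to 342 RPKM with a median of 304, its K467N libraries from 247 to 316 with a median of 290, and its K467R libraries from 270 to 400 with a median of 325. The libraries at 247 and 400 were K467N 2 and K467R 1, with the next in the same strain at 270 and 330. The lowest was RPN2 (YIL075C), with 133 to 149 RPKM in WT (median 140), 133 to 153 in K467N (median 137) and 132 to 142 in K467R (median 138). The 3 strains overlapped for both genes. The ATPase genes RPT1 to RPT6 lay close together, from 194 RPKM for RPT5 to 273 for RPT6 in WT. RPN13, a second ubiquitin receptor and the shortest member, stood at 228 RPKM. RPT4 (YOR259C), an ATPase of the base ring, ran from 225 to 242 RPKM in WT (median 229), from 211 to 247 in K467N (median 232) and from 235 to 269 in K467R (median 247).

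Within the lid, the highest gene was RPN6 (YDL097C), whose product holds the lid to the core. It ran from 246 to 266 RPKM in WT (median 254), from 239 to 261 in K467N (median 253) and from 244 to 268 in K467R (median 261). RPN9 (YDR427W), a lid subunit, was the lowest of all subunits. Its WT libraries lay between 89.1 and 98.7 RPKM, its K467N libraries between 82.3 and 118 (median 98.5) and its K467R libraries between 82.8 and 114 (median 85.8). The step from RPN2 down to RPN9 was 1.49-fold and was the widest between neighbours in the order of WT levels. RPN11 (YFR004W), the deubiquitinase that removes ubiquitin chains from substrates, ran from 186 to 206 RPKM in WT (median 195), from 178 to 209 in K467N (median 201) and from 198 to 219 in K467R (median 206). The strains overlapped for all 3 lid genes, and RPN9 was least spread in WT. The other lid genes stood at 221 RPKM (RPN8, the partner of RPN11), 177 (RPN5), 163 (RPN12), 158 (RPN7) and 146 (RPN3) in WT.

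In the alpha ring, which gates the entry to the barrel, WT means ran from 291 ± 21.1 RPKM for PRE8 (YML092C) to 413 ± 33.7 for PRE9 (YGR135W). PRE9 libraries lay between 369 and 451 RPKM in WT, 346 and 452 in K467N and 387 and 459 in K467R. PRE8 libraries lay between 265 and 314 RPKM in WT, 235 and 312 in K467N and 273 and 330 in K467R. Both genes overlapped across strains, and the lowest library of each was K467N 2. The next lowest was WT 2 for PRE9 (369 RPKM) and K467N 4 for PRE8 (261 RPKM). PRE9 encodes the only subunit of the core that yeast can live without. Between them in WT stood PRE6 at 403, SCL1 at 357, PRE10 at 350, PRE5 at 333 and PUP2 at 328 RPKM.

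In the beta ring the highest gene was PUP3 (YER094C), which encodes a subunit without an active site, at 384 to 487 RPKM in WT (median 434), 375 to 458 in K467N (median 420) and 393 to 531 in K467R (median 445). The 3 catalytic subunits were PRE2, PRE3 and PUP1, which cleave after hydrophobic, acidic and basic residues. PRE2 (YPR103W) ran from 334 to 391 RPKM in WT (median 363), 314 to 387 in K467N (median 358) and 347 to 408 in K467R (median 372). PRE3 (YJL001W) had WT libraries between 279 and 337 RPKM (median 307), K467N libraries between 258 and 321 (median 306) and K467R libraries between 294 and 355 (median 316). PUP1 (YOR157C), the lowest of the ring, had WT libraries between 260 and 326 RPKM (median 295), K467N libraries between 261 and 303 (median 284) and K467R libraries between 274 and 351 (median 304). Each catalytic gene overlapped across strains, and PRE2 had the highest median of the 3 in each strain. PRE4 (YFR050C), a non-catalytic beta subunit, ran from 273 to 312 RPKM in WT, 255 to 330 in K467N and 301 to 334 in K467R. PRE7 (YBL041W), another, ran from 298 to 371 RPKM in WT, 286 to 354 in K467N and 316 to 399 in K467R. PRE1, also without an active site, stood at 339 RPKM in WT. For both PRE4 and PRE7 the K467R range lay highest and overlapped the other strains.

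RPN4 (YDL020C) stood below all 32 subunits, with a WT mean of 87.6 ± 2.52 RPKM, or 0.331 of the median subunit. Its WT libraries lay between 85.7 and 91.7 RPKM (median 86.3), its K467N libraries between 86.4 and 101 (median 90.2) and its K467R libraries between 81.1 and 94.0 (median 88.8). The strains overlapped, and the library at 101 was K467N 4. RPN4 overlapped RPN9, its nearest neighbour. Along the order of WT levels, the 6 libraries of neighbouring members overlapped in 28 of 32 steps. They did not overlap from RPN8 to RPN11, from RPT5 to RPN5, from RPN7 to RPN1 and from RPN2 to RPN9. Genes with an exact PACE match spanned 94.4 to 431 RPKM (27 genes, median 255) and those without one 221 to 333 RPKM (5 genes, median 293), so the latter lay inside the range of the former.

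The mutants were then compared with WT to ask whether either mimic changed the proteasome genes. In K467N, 0 of 33 members passed edgeR's quasi-likelihood test at an adjusted p of 0.05, where 4 of 5660 genes (0.0707%) did. At an unadjusted p under 0.05, 0 members were called, against 0.565% of genes higher and 0.583% lower. DESeq2 and limma-voom also called 0 members, adjusted or not, where 1.13% and 1.17% of genes passed unadjusted. The median log2 fold change was -0.02 over the members and 0.000298 over all tested genes, and 10 of 33 members lay above 0, against 50.2% of genes. Without K467N 2 the count was 20 of 33 and the median 0.00666, and without both K467N 2 and K467R 1 they were 18 of 33 and 0.00384. The members spanned -0.08 (RPN10) to 0.08 (RPN9). The median 95% interval of a member reached 0.11 to either side of its own estimate, and the changes it excludes differed between members. The interval of RPT5 ran from -0.08 to 0.07. The interval of RPN10 ran from -0.27 to 0.10 and that of RPN9 from -0.08 to 0.25. RPN4 had the smallest p of the members, at 0.06 ± 0.05 (SE; adjusted p = 0.999), and its estimate was 0.03 without K467N 4. RPN9 at 0.08 ± 0.08 and PRE8 at -0.06 ± 0.06 came next, with the same adjusted p. In 0 of 33 members did the 6 K467N libraries lie apart from the 6 WT libraries, as they did above WT for 0.0883% of genes and below WT for 0.0353%.

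In K467R, 0 of 33 members passed, where again 4 of 5660 genes (0.0707%) did. At an unadjusted p under 0.05, 1 member was higher (RPT4) and 0 lower, against 2.46% of genes higher and 3.22% lower. DESeq2 called 0 members adjusted and 2 unadjusted, where 5.81% of genes passed unadjusted, and limma-voom 0 and 1, where 5.57% did. The median log2 fold change was 0.06 over the members and -0.01 over all tested genes, and 26 of 33 members lay above 0, against 46.9% of genes. Without K467N 2 and K467R 1 the median was 0.03 with 29 of 33 above 0, and with 2 surrogate variables it was -0.00262 with 15 of 33 above 0. The median was also 0.03 without WT 2 alone or WT 3 alone, and 0.04 without K467R 5 alone. RPT4 was at 0.11 ± 0.05, RPN11 at 0.08 ± 0.04 and PRE4 at 0.10 ± 0.05 (SE), each with an adjusted p of 0.747. RPN4 was at 0.01 ± 0.05 (adjusted p = 0.957), the largest p of the 33. Libraries of K467R and WT overlapped for each of the 33, while 0.141% of genes had all K467R libraries above WT and 0.141% below. These values share their WT libraries with those of K467N.

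Between the mutants, 0 of 33 members passed, where 1 of 5660 genes (0.0177%) did. With K467R over K467N, 2 members were higher at an unadjusted p under 0.05, RPT4 at 0.10 ± 0.05 and PRE7 at 0.13 ± 0.06 (adjusted p = 0.408 for both), and 0 were lower, against 5.85% of genes higher and 5.37% lower. DESeq2 and limma-voom each called 0 members adjusted and 2 unadjusted (6.06% of the members), where 12.6% and 11.5% of genes passed unadjusted. The median was 0.08 over the members and -0.01 over all genes, with 24 of 33 members above 0 against 47.5% of genes. Without K467N 2 and K467R 1 the median was 0.02 with 28 of 33 above 0. PRE4 had the third smallest p, at 0.11 ± 0.05, and RPN4 was at -0.05 ± 0.05 (adjusted p = 0.525). For 0 members did the libraries of the mutants lie apart, against 0.053% of genes higher and 0.23% lower.

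**Figure D3:**
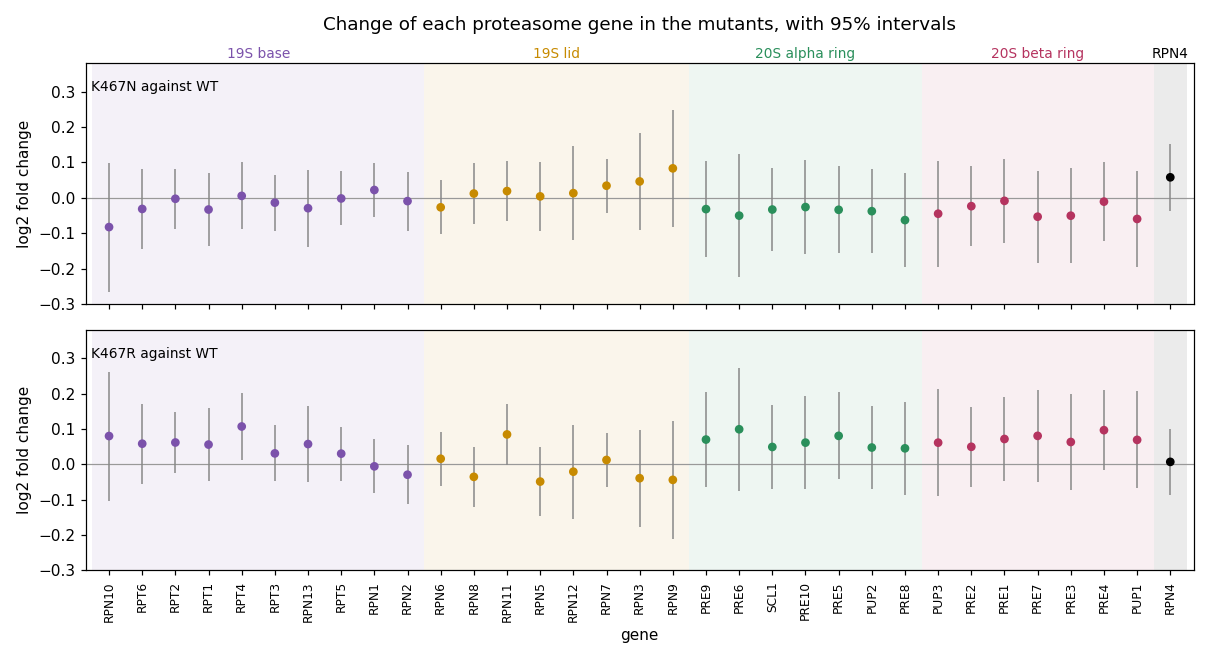
log2 fold change of each member in K467N (top) and K467R (bottom) against the same 6 WT libraries, with bars for 95% intervals from edgeR, coloured by subcomplex. No member passed the test in either comparison, and the ring genes lie just below 0 in the upper panel and just above 0 in the lower.

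The subcomplexes did not lie on the same side of 0. In K467N the 7 alpha and 7 beta ring genes were all below 0 (medians -0.03 and -0.05), 2 of 10 base genes were above 0 (median -0.01), and 7 of 8 lid genes were above 0 (median 0.02). In K467R the 14 ring genes were all above 0 (medians 0.06 and 0.07), with 8 of 10 base genes (median 0.06) and 3 of 8 lid genes (median -0.03). None of these genes passed the test. The side depended on the libraries and the model. Without K467N 2 and K467R 1, 6 of the 14 ring genes were above 0 in K467N and 14 in K467R, where the median lid gene was at 0.00953. With 2 surrogate variables 4 of 14 ring genes were above 0 in both mutants.

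Single libraries moved further than strains. Relative to the WT mean, the median of the 32 subunits ran from -0.09 (WT 3) to 0.09 (WT 5) on the log2 CPM scale in WT, from -0.16 (K467N 2) to 0.06 (K467N 5) in K467N and from -0.04 (K467R 3) to 0.13 (K467R 1) in K467R. The alpha ring median was -0.23 in K467N 2 and 0.18 in K467R 1. In these libraries the lid median was 0.02 and -0.19. Both are the libraries that stand apart over all genes. K467R 5, which was not set apart, also had a subunit median of 0.13. Its alpha ring median was 0.16 and its lid median -0.08.

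**Figure D4:**
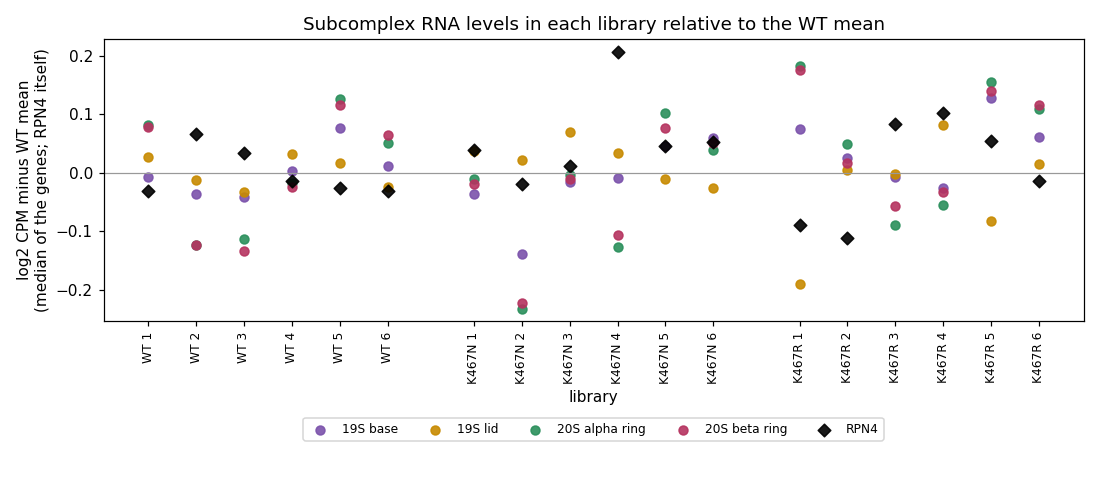
Median deviation from the WT mean (log2 CPM) of base, lid, alpha ring and beta ring genes and of RPN4 in each of the 18 libraries. Alpha and beta rings lie together in each library, from about -0.23 and -0.22 in K467N 2 to 0.18 in K467R 1, while the lid does not follow them and RPN4 is highest in K467N 4.

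To describe which subunits varied together, the mean of each strain was subtracted from log2 CPM and each subunit was correlated with the mean of the other 31 over the 18 libraries. All values rest on the same 18 libraries and on genes of one complex, so they are a description. The median was r = 0.828 over the 32 subunits. All 14 ring genes (0.721 to 0.962) and 8 of 10 base genes were above 0, among them PRE9 at 0.962 and RPT6 at 0.926. Of 5078 other genes of known coding length, 2499 were above 0 with the mean of the 32 subunits. RPN1 at -0.719, RPN2 at -0.731 and 6 of 8 lid genes were below 0. The same split followed the first principal component over all genes, strain means subtracted: the 24 subunits above 0 had r from -0.977 (PUP3) to -0.424 (PRE1) with it, and the 8 below 0 had r from 0.387 (RPN12) to 0.846 (RPN3). Without K467N 2 and K467R 1 the median was 0.818, and RPN12 at 0.0371 was the subunit that changed side. Many other genes shared this pattern: of 5121 other genes with a mean of at least 5 CPM, 560 followed the mean of the 32 subunits at r above 0.828. The most alike were TMA7 (r = 0.979), HSP10 (0.975), the ribosomal protein genes RPS23B (0.973), RPS1A (0.969), RPS17A (0.968) and RPS10A (0.965), YKT6 (0.967) and the histone gene HHF1 (0.966). Without K467N 2 and K467R 1 these 8 genes were at 0.957 to 0.985. The 4 RPS genes and HHF1 have close copies in the genome, so their counts are uncertain. None of these 8 genes held an exact PACE match in its window.

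Coding length moved with this pattern, since RPN1 and RPN2 are the longest members, while the ring genes have 597 to 867 coding bases. When a trend in coding length was removed from each library, a step chosen after seeing the data, RPN1 was at r = 0.901 and RPN2 at 0.714 with the other subunits. The 14 ring genes stayed above 0 (0.251 for PRE1 to 0.937 for PRE9), and all 10 base genes were above 0, although RPN13 was at 0.00551. Of 5078 other genes, 2943 were above 0 with the mean of the 32 subunits after this step (median 0.175, highest 0.962). The same 6 lid genes were below 0, namely RPN9 at -0.597, RPN5 at -0.534, RPN3 at -0.525, RPN12 at -0.378, RPN8 at -0.318 and RPN7 at -0.246. The lid genes RPN6 (0.856) and RPN11 (0.573) went with the base and core. In pairs, the 6 lid genes were all above 0 with each other (15 pairs, median r = 0.752), and were at a median of -0.529 with the other 26 subunits (156 pairs, 13 above 0). Among those 26 the median pair was at 0.773. The split was read from these same values and carries no test. Without K467N 2 and K467R 1, all 32 subunits stayed on the same side, with RPN7 nearest 0 at -0.0391.

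**Figure D5:**
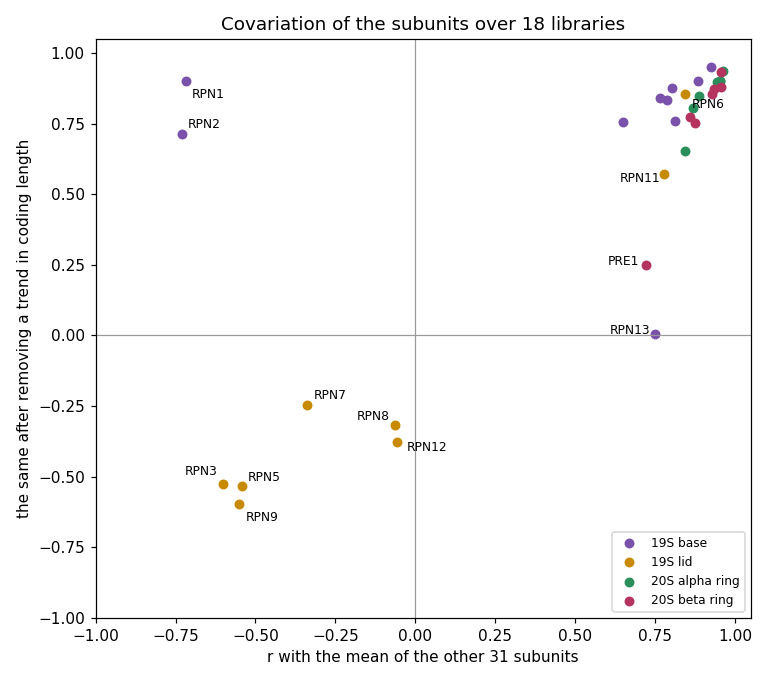
Correlation of each of the 32 subunits with the mean of the other 31 over 18 libraries, strain means subtracted (x axis), and the same after a trend in coding length was removed (y axis), coloured by subcomplex. RPN1 and RPN2 move from below to above 0, and 6 lid genes stay below 0 on both axes.

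RPN4 RNA did not rise and fall with the subunits. Its correlation with the mean of the 32 was r = -0.320 over the 18 libraries and -0.545 without K467N 2 and K467R 1, and 11 of 32 subunits were above 0 with it. Other genes with a mean of at least 5 CPM ran from -0.822 to 0.840 with RPN4 over the 18 libraries (median 0.0354). Within strains the correlation of RPN4 with the mean of the 32 was -0.888 in WT, -0.0321 in K467N and -0.376 in K467R, over 6 libraries each. With the length trend removed, it was at -0.0633 with the mean of the 26 subunits and at 0.154 with the mean of the 6 lid genes. The genes most alike to RPN4 were RVB2 (r = 0.840), RIM2 (0.819), SRF1 (0.814), YLR108C (0.790) and RTR1 (0.785), which were at 0.758 to 0.895 without K467N 2 and K467R 1.

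Genes that build, serve or control the proteasome were taken from 4 lists, each with all its genes tested. In either comparison with WT, 0 of them passed. Over all tested genes, 50.2% lay above 0 in K467N and 46.9% in K467R. Whether the counts above 0 in these lists depend on the libraries that stand apart over all genes was not tested. Of the 10 assembly chaperone genes, 3 were above 0 in K467N (median -0.05) and 8 in K467R (median 0.03). POC4, of a chaperone for the alpha ring, was at -0.12 ± 0.09 and RPN14, of a chaperone for the base, at -0.05 ± 0.05 in K467N. In K467R UMP1, which guides the closing of the core, was at 0.14 ± 0.09 and IRC25, the partner of POC4, at 0.08 ± 0.07. Of the 8 genes of associated proteins, 3 were above 0 in each mutant (medians -0.01 and -0.02). UBP6, of a deubiquitinase on the base, was at 0.04 ± 0.04 and SPG5, of a proteasome regulator of stationary phase, at 0.04 ± 0.04 in K467N. In K467R HUL5, of a ubiquitin ligase that extends chains, was at -0.09 ± 0.07 and FUB1 at 0.12 ± 0.09.

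Of the 21 ubiquitin system genes, 12 were above 0 in K467N (median 0.00466) and 9 in K467R (median -0.02). UBC5, of a ubiquitin-conjugating enzyme, was at -0.12 ± 0.09 and SAN1, of a nuclear ubiquitin ligase, at -0.07 ± 0.05 in K467N. In K467R RSP5, of a ubiquitin ligase, was at -0.12 ± 0.05 and RAD23, of a shuttle that carries substrates to the proteasome, at 0.10 ± 0.05. Of the 6 genes that control RPN4, all were above 0 in K467N (median 0.04) and 1 in K467R (median -0.09). None of these 6 genes passed the test. Whether their sides depend on the libraries that stand apart was not tested. PDR3 was at 0.09 ± 0.11 in K467N and -0.18 ± 0.11 in K467R, and PDR1 at 0.05 ± 0.09 in K467N. MUB1, the partner of the ligase Ubr2 in the degradation of Rpn4, was at -0.19 ± 0.09 in K467R. The adjusted p of each gene named from these lists was 0.999 in K467N and 0.747 to 0.753 in K467R.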

How the data were processed

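The deposited values are raw counts per gene, 1 file per library, made by the authors. Per the submitters' processing notes HTSeq 0.6.1p1, STAR 2.5.3a and bcl2fastq 2.20.0.422 were used. Per the labels' protocols, 600 ng of RNA and 12 PCR cycles went into each stranded library. The build, annotation and strand setting behind the counts: not given in the sources used here. Genes took 75.3 to 76.2% of the reads sorted by HTSeq; reads with several alignments (18.3 to 19.6%), outside genes (4.70 to 5.64%) or ambiguous (0.305 to 0.349%) stayed out.

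The test on counts was that of edgeR 4.0.16 under R 4.3.3 (filterByExpr, TMM, robust quasi-likelihood, strain as the only term, 18 libraries in 1 fit), two-sided, with Benjamini-Hochberg adjustment over 5660 genes. Standard errors came from the fold change and its F statistic, and intervals used the t distribution with the degrees of freedom of that test. The script was tested on simulated data. Alternatives used DESeq2 1.42.0, limma 3.58.1 and sva 3.50.0, other scalings and filters, and each library left out. Log2 CPM used a prior count of 2.

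Names, coding lengths and upstream sequences came from RefSeq R64, which matched 5956 of 7036 features, all 33 members included. No member overlaps another R64 gene or has a copy of at least 80% identity over 50% of its length (BLAST 2.17.0). Overlap with the 1080 counted features not matched to R64 was not checked. Tables and figures were made with matplotlib 3.10.9 and pandas 2.3.3 under Python 3.11.15.

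The members and lists were chosen with earlier results of these data known. Named were RPN4, the highest and lowest gene of each subcomplex, the 3 catalytic genes, the 3 members of smallest p per comparison, 2 genes of smallest p per related list against WT, and the 8 and 5 genes most alike to the subunits and to RPN4. Others are named to account for the members.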

Additional observations from a re-analysis of the deposited data

Results flagged for a closer look

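In 102 sets of 6 libraries (33 members and the median of the subunits, in 3 strains), 6 had 1 library apart from the other 5 by Dixon's gap test, where chance gives about 1 in 20. K467N 2 held 3 of them: RPN1 at 160 RPKM against 144 to 150, RPT2 at 229 against 254 to 265, and RPN11 at 178 against 199 to 209. RPN4 was at 101 RPKM in K467N 4 against 86.4 to 90.7. RPT5 was at 204 RPKM in WT 5 against 191 to 193, and RPN5 at 164 RPKM in WT 6 against 178 to 183.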

How the results depend on the processing

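In each comparison 0 members were called in the 28 refits and at an adjusted p of 0.01. At an unadjusted p under 0.05 there were 0 in K467N, 0 to 3 in K467R and 0 to 10 between the mutants. In the same refits 0.688 to 3.96%, 3.28 to 10.1% and 2.05 to 21.4% of all genes passed. The count between the mutants was 10 without K467N 5, 9 without K467R 3 and 8 without K467R 4, where 21.4%, 19.6% and 21.2% of all genes passed. It was 5 with the coding length trend removed (13% of genes). It was 0 without K467N 2 (4.11%), K467N 4 (5.64%), K467R 1 (4.81%), K467R 5 (5.89%) or both K467N 2 and K467R 1 (2.05%). Upper-quartile scaling (10.6%) and 2 surrogate variables (6.15%) also gave 0. In K467R the count was 0 without WT 1 (6.44%), WT 2 (3.46%), WT 3 (3.28%), K467R 1 (3.33%) or K467R 5 (3.86%). It was 3 without K467N 2 (7.04% of genes) and with the coding length trend removed (8.45%). Members above 0 numbered 9 to 20 in K467N, 15 to 29 in K467R and 19 to 28 between the mutants. The median of the members ran from -0.0372 to 0.00666 in K467N, the latter without K467N 2, and from -0.00262 (2 surrogate variables) to 0.0733 in K467R. Between the mutants it was 0.00530 with 2 surrogate variables, 0.0248 without K467N 2 and K467R 1, and 0.0466 to 0.0995 with 1 library left out. Over all genes, 2 were called in K467N with at least 10 CPM in 6 libraries, 8 in K467R with surrogate variables, and 7 in K467R and 2 between the mutants with DESeq2. The WT ratio of RPN4 to the median subunit (0.326 to 0.336) and the span of subunits (4.44 to 4.66) varied little when a library was left out. The largest shift of the median of all genes was 0.0147.

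Named members, none called, changed sign as follows; the cause was not tested. With 2 surrogate variables, in K467N PRE2 was at 0.00456 and PRE4 at 0.0134. In K467R RPN10 was at -0.0432, RPN6 at -0.0164, RPN9 at 0.0251, PRE9 at -0.00523, PRE8 at -0.0342, PUP3 at -0.0374, PUP1 at -0.0147, PRE3 at -0.0144 and PRE2 at -0.0195. Between the mutants RPN10 was at -0.0125, RPN2 at 0.0118, RPN6 at -0.00265, PRE9 at -0.00360, PRE8 at -0.00229, PUP3 at -0.0352 and PRE2 at -0.0240. With the coding length trend removed RPN2 was at 0.0232 in K467R and 0.0594 between the mutants. Without K467R 1 and K467N 2, in K467N PRE9 was at 0.00919, PRE2 at 0.00965 and PRE4 at 0.0283, and RPN2 between the mutants at 0.00630. With a library left out, in K467N RPT4 ran from -0.0123 to 0.0357, PRE4 from -0.0454 to 0.0311, RPN2 from -0.0338 to 0.00732, PRE2 from -0.0497 to 0.0124 and PRE9 from -0.0664 to 0.0120; RPN4 in K467R from -0.0133 to 0.0289; and RPN2 between the mutants from -0.0337 to 0.00876. No paired analysis was possible because the labels give no replicate numbers.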
